A study of Mus musculus with 30 samples.

Results

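Of the 20569 protein-coding genes on the autosomes in the count table, 10 that are used to follow the tendon and connective tissue lineage of the limb are described here, chosen by name: *Scx*, *Mkx*, *Six2*, *Hic1*, *Islr*, *Kera*, *Lum*, *Dcn*, *Ogn* and *Smoc2*. RNA was sequenced from forelimb buds of wild-type Swiss Albino mouse embryos. Pregnant females had been injected at E10.5 either with the solvent DMSO (wild-type control) or with Wnt-C59 (C59), and embryos were dissected 1, 6, 12, 18 or 24 h later, which gave 10 groups of 3 libraries and 30 libraries in all. Per the study's methods, the RNA of a library came from a single pair of forelimb buds, by which the libraries of a group are separate embryos. C59 blocks porcupine, the enzyme that WNT ligands need for secretion, and was given to the mother without restriction to a cell type, so the design does not separate effects within tendon progenitors from effects relayed by other cells.

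Tendons of the limb arise from mesenchymal progenitors that lie between the cartilage and the muscle. *Scx* encodes a basic helix-loop-helix transcription factor and is the earliest widely used marker of these progenitors, and *Mkx* encodes the homeobox factor Mohawk, which acts in tendon differentiation. *Six2* encodes a homeobox factor of limb connective tissue, *Hic1* a zinc-finger repressor found in mesenchymal progenitors, and *Islr* the surface protein Meflin of stromal progenitors. *Kera*, *Lum*, *Dcn* and *Ogn* encode the small leucine-rich proteoglycans keratocan, lumican, decorin and osteoglycin, which bind collagen and control the width of its fibrils, and *Smoc2* encodes a secreted calcium-binding protein of the SPARC family. In whole limb buds, more RNA of a gene per cell and more cells that express it cannot be told apart.

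The proteoglycan genes lie in 2 clusters of the mouse genome (mm10). *Dcn* (chr10:97479609-97518143), *Lum* (chr10:97565128-97572703), *Kera* (chr10:97606879-97613692) and *Epyc* (chr10:97644068-97682454) follow each other on the plus strand, with gaps of 47.0, 34.2 and 30.4 kb and no other protein-coding gene between them. *Ogn* (chr13:49608046-49624501) is the last of a row with *Ecm2*, *Aspn* and *Omd*, all on the plus strand, and starts 15.2 kb after the end of *Omd*. The others stand apart from them, among them *Scx* on chromosome 15, *Six2* and *Smoc2* on chromosome 17, *Hic1* on chromosome 11 and *Islr* on chromosome 9. *Islr* shares 6.7% of its exonic bases with other annotated exons on the same strand, and *Mkx* shares 4.9%. Their counts are thus less certain than those of the other 8, which share none. On its strand *Islr* is overlapped by *Gm47174* and *Islr2*, whose parts in the shared bases were not separated.

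RefSeq (GRCm38.p6) gave the promoter of 5 of the 10 genes. The 250 bases before the start are printed for *Ogn*, *Islr* and *Hic1*, which were higher in C59-treated forelimb buds at 12 h and whose windows hold no annotated exon. The windows are chr13:49607765-49608014 on the plus strand for *Ogn*, chr9:58158555-58158804 on the minus strand for *Islr*, within the longer annotated gene, and chr11:75170256-75170505 and chr11:75168153-75168402 on the minus strand for the upstream and the downstream start of *Hic1*. Capitals mark the E-box CANNTG, the sequence that basic helix-loop-helix factors such as SCX bind, searched on both strands. The TCF/LEF site CTTTGAT, bound by the factors that carry the WNT/β-catenin signal, was searched in the same way and does not overlap the E-box.
Ogn: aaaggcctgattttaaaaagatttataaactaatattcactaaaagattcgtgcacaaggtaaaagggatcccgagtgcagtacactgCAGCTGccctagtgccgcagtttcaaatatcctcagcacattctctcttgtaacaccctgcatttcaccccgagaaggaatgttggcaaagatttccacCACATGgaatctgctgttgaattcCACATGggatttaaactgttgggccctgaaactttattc
Islr: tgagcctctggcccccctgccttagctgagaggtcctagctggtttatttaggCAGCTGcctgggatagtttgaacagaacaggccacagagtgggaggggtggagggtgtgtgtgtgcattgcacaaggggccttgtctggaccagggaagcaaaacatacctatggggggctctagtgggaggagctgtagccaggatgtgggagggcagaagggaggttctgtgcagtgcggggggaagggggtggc
Hic1 upstream start: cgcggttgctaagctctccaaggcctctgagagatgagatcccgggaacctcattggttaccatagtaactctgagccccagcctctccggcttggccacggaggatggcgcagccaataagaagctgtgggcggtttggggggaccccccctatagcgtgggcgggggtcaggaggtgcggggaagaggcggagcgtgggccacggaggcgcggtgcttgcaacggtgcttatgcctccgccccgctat
Hic1 downstream start: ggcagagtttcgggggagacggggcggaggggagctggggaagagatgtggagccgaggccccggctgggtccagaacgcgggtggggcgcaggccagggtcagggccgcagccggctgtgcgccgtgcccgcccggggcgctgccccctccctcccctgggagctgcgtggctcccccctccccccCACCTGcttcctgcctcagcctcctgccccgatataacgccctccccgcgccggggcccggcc
The *Ogn* window held 3 E-boxes, the *Islr* window 1, and the *Hic1* windows 0 and 1. An E-box was found in 66.2% of all 32851 promoter windows of this length. The TCF/LEF site, found in 3.21% of all windows, was in none of these 4, and was found in both windows of *Epyc*, the neighbour of *Kera*. These matches describe letters in short windows and say nothing of binding.

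Libraries held 18188636 to 38974885 counts. Levels are given as CPM, the counts divided by library sizes that TMM factors had scaled over all 30 libraries, and fold changes come from edgeR's quasi-likelihood F test at each time point with its own factors, so they can depart a little from the ratio of the CPM. A gene passed at a Benjamini-Hochberg adjusted p below 0.05 over all genes tested, and was called when its log2 fold change was also beyond 1. *Axin2*, a direct target of WNT/β-catenin signaling, checked the treatment. It was lower by 0.19 on the log2 scale at 1 h (edgeR adjusted p = 0.0282), by 1.97 at 6 h (7.55e-11) and by 1.45 at 12 h (1.4e-07). *Axin2* did not pass at 18 h (log2 fold change -0.16) or 24 h (-0.08). The forelimb label was checked with *Tbx5*, the T-box factor of the forelimb, which was at 192.2 to 327.2 CPM in the 30 libraries, against at most 23.8 CPM for the hindlimb markers *Tbx4* and *Pitx1* together. C59 18 h replicate 3 stood apart, with a lowest correlation of 0.982 to another library of its group against 0.993 or more in every library outside that group, and the results named at 18 h are given with and without it. The transcript CT010467.1 took 0.204 to 0.545% of counts in DMSO 1 h, 6 h and 18 h replicate 1 and C59 24 h replicate 2, against 1.95 to 2.91% elsewhere. The embryos also differed in sex between groups: 4 Y-linked genes summed to 21.3 to 38.2 FPKM in C59 and 0.05 to 9.03 in DMSO at 1 h, and to 19.8 to 33.2 against 0 at 6 h. DMSO 1 h replicates 1 and 2, at 7.66 and 9.03 FPKM, lay in between. Every other library was at 0.42 or below or at 18.8 or above, and whether these libraries held RNA of more than 1 embryo was not tested. The part of these differences in the results was not tested.

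In wild-type control limb buds all 10 genes were higher at 24 h than at 1 h, in a comparison where 30.2% of all tested genes were higher, and their median log2 fold change was 3.34, beside 0 for all genes. The proteoglycan genes changed over the widest range. *Kera* went from 0.0912, 0.0496 and 0.0722 CPM at 1 h to 14.6, 18.9 and 16.7 CPM at 24 h. At 1 h only 5 *Kera* counts were found over the 3 libraries, and 1217 at 24 h, a ratio of 260.4 with an exact 95% interval for counting error of 111.3 to 803.4. *Ogn* rose from 0.182, 0.0992 and 0.397 CPM to 30.8, 29.7 and 30.4 CPM, or from 17 to 2176 counts, a ratio of 136.9 (95% interval 85.3 to 235.5). *Dcn* rose 16.3-fold (log2 fold change 4.03 ± 0.14 SE, edgeR adjusted p = 1.46e-11) and *Lum* 15.5-fold (3.95 ± 0.09, edgeR adjusted p = 1.57e-13). None of these 4 genes had overlapping groups, and the share of all genes without overlap was not counted. *Kera* and *Ogn* were too low for a test among the libraries of 1 h alone, and entered this comparison through their level at 24 h.

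Among the transcription factors and the remaining genes the rise was smaller. *Hic1* rose 10.9-fold, *Smoc2* 9.47-fold, *Six2* 9.32-fold and *Islr* 5.06-fold. *Mkx* rose 2.06-fold, from 12.5, 12.5 and 13.5 CPM to 25.4, 23.3 and 27.8 CPM. *Scx* was the one gene of the 10 with a log2 fold change under 1 (0.68 ± 0.06, edgeR adjusted p = 2.1e-07), and of the 4 steps it passed in the first, from 45.6, 49.8 and 46.3 CPM at 1 h to 68.1, 61.1 and 71.2 CPM at 6 h. From one time point to the next, 9 of the 10 genes rose between 1 and 6 h (4.17% of all genes did), 8 between 6 and 12 h (2.95%), 8 between 12 and 18 h (7.27%) and 9 between 18 and 24 h (7.21%). *Scx* did not pass in the last 3 steps, *Mkx* did not pass from 6 to 12 h and from 12 to 18 h, and *Dcn* did not pass from 1 to 6 h. The filter for these steps took in all 15 DMSO libraries. *Kera*, too low for a test at 1 h or 6 h alone, therefore entered the first step through later times. *Ogn* was too low for a test at 1 h alone. With 1 library left out, the step from 1 to 6 h no longer passed for *Ogn* without any DMSO library of the 2 times other than 1 h replicate 3 (edgeR adjusted p = 0.0947 to 0.152), for *Mkx* without 1 h replicate 1 or 2 or 6 h replicate 1 or 3 (0.0948 to 0.107), and for *Kera* without 1 h replicate 2 or 3 or 6 h replicate 1 (0.0558 to 0.109). Limma on log2(FPKM + 1) did not pass *Ogn* (adjusted p = 0.286) or *Kera* (0.377) there, and with a spread shared by all 30 libraries neither *Ogn* (0.11) nor *Mkx* (0.0868) passed. The step from 18 to 24 h no longer passed for *Kera* without 18 h replicate 3 or 24 h replicate 2 or 3 (edgeR adjusted p = 0.0568 to 0.0871), for *Hic1* without 18 h replicate 3 or 24 h replicate 1 or 3 (0.0575 to 0.089), and for *Mkx* without 18 h replicate 2 (0.054) or 24 h replicate 3 (0.0865), nor for *Kera* with limma on log2(FPKM + 0.1) (0.14).

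Levels of different genes can be compared per transcript length, in FPKM. In wild-type control limb buds at 1 h, *Scx* was highest with a mean of 24.6 FPKM, followed by *Islr* with 7.98 and *Six2* with 4.43, and *Ogn* (0.0547) and *Kera* (0.0181) were lowest. By 24 h *Six2* (43.3 ± 1.84 SD), *Islr* (43.2 ± 0.853) and *Scx* (39.7 ± 1.89; n = 3 each) lay close together, and the ranges of *Six2* and *Islr* overlapped. *Lum* (31.0 ± 2.42) and *Hic1* (30.8 ± 2.61) came next and also overlapped. *Kera* was still the lowest, with 5.89 ± 0.756 FPKM.

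**Figure D1:**
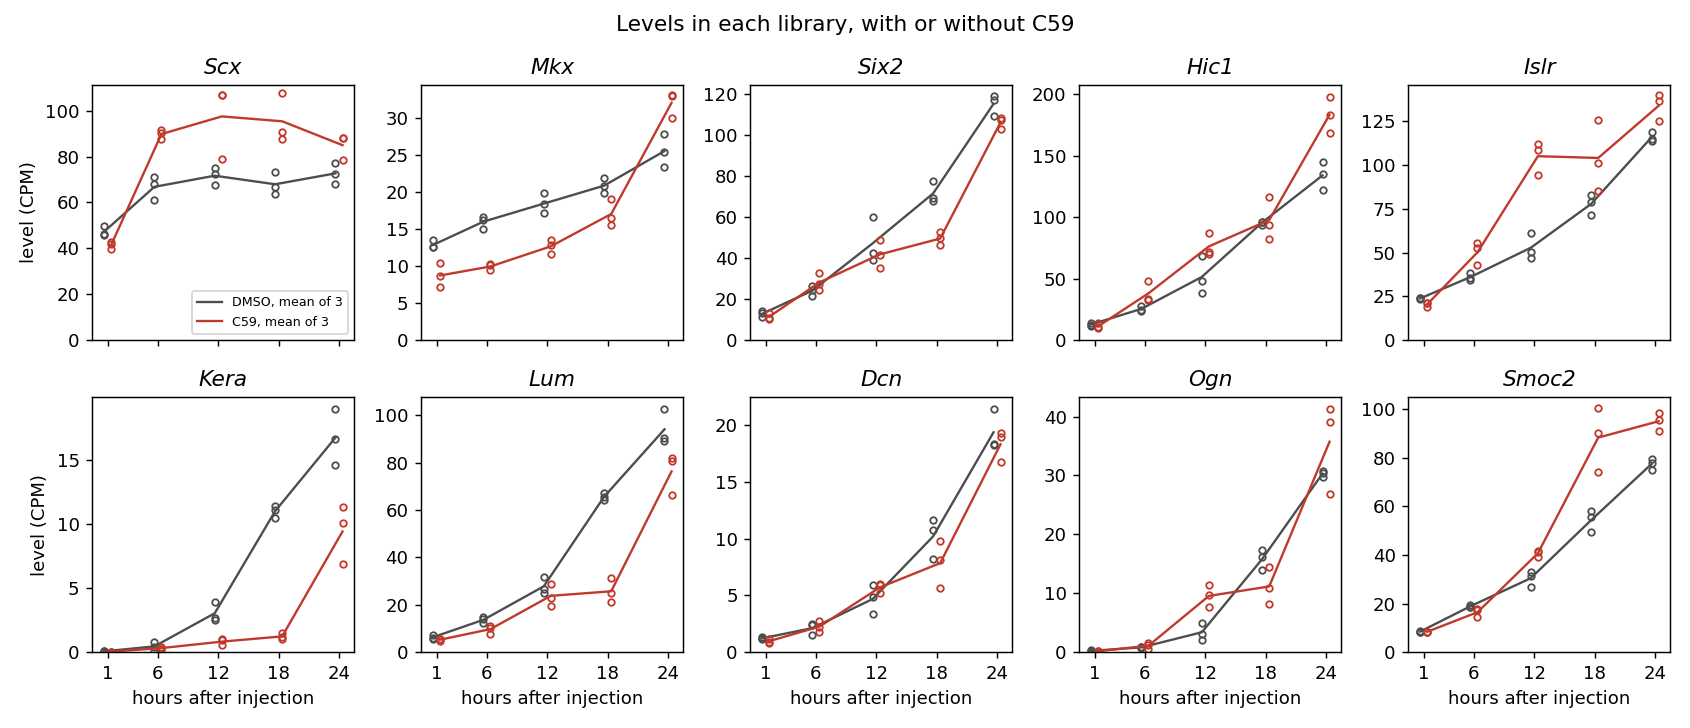
Level of each of the 10 genes (CPM, vertical axis from 0) against hours after injection, with 1 point per library and lines through the means of 3 libraries, in DMSO (grey) and C59 (red). *Kera* in C59 stays at 0.827 CPM at 12 h and 1.24 CPM at 18 h while DMSO reaches 11 CPM, whereas *Scx* in C59 lies above DMSO from 6 h on.

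At 1 h after C59 injection 1 of 8 tested genes had changed, at 6 h 5 of 9, at 12 h 7 of 10, at 18 h 5 of 10 and at 24 h 4 of 10, and they did not move one way. *Scx*, *Hic1*, *Islr* and *Smoc2* were higher in C59-treated forelimb buds wherever they passed, *Kera*, *Lum* and *Six2* lower, *Mkx* lower early and higher late, and *Ogn* higher at 12 h. The gene that passed at 1 h was lower (1.61% of all genes were lower and 1.14% higher). At 6 h 3 were higher and 2 lower, against 8.2% higher and 11.4% lower of all genes, and at 12 h 5 were higher and 2 lower, against 22% and 25.5%. At 18 h 2 were higher and 3 lower, against 3.46% and 3.62%, and at 24 h 3 were higher and 1 lower, against 2.88% and 3.56%. With upper-quartile scaling the share of higher genes among all that passed went from 41.9% to 52% at 6 h and from 46.4% to 61.4% at 12 h. The larger changes, beyond 1 on the log2 scale, took in *Kera* and *Ogn* at 12 h, where 4.95% of all genes were called, and *Kera* and *Lum* at 18 h, where 1.29% were. None of the 10 genes was called at 1 h (0.283% of all genes), 6 h (1.17%) or 24 h (0.819%), where 1, 5 and 4 of them passed the adjusted p alone. The median log2 fold change of the genes tested was -0.19, 0.23, 0.35, -0.34 and 0.22 in order of time, beside 0 to 0.02 for all genes.

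**Figure D2:**
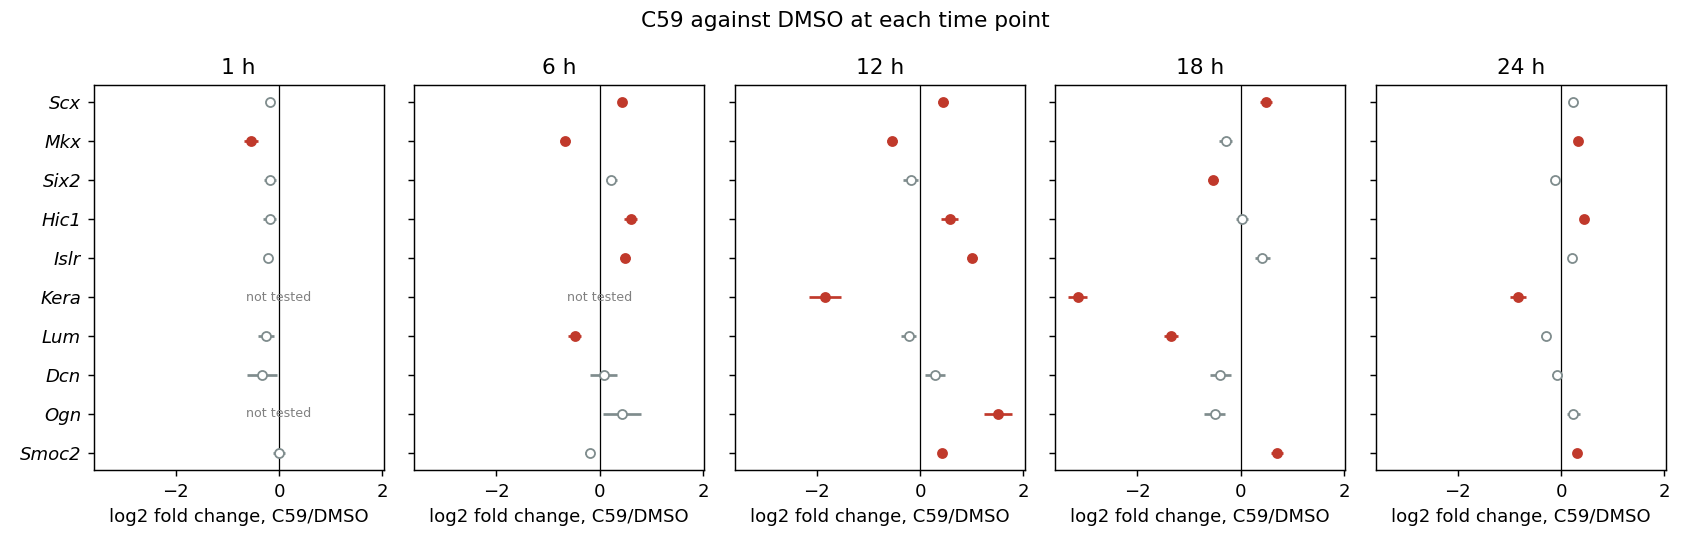
Log2 fold change of C59 over DMSO for each of the 10 genes at each time point, 3 libraries against 3, with bars of 1 standard error. Filled red points passed an adjusted p of 0.05 and open grey points did not, and *Kera* reaches -3.15 at 18 h while *Ogn* reaches 1.5 at 12 h.

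Keratocan had the largest changes of the 10 genes, all of them downward. At 12 h *Kera* was at 2.66, 3.94 and 2.52 CPM in DMSO and 0.546, 1.01 and 0.919 CPM in C59. All C59 libraries lay below all DMSO libraries, and the log2 fold change was -1.84 ± 0.31 (SE, edgeR adjusted p = 0.00065). At 18 h the DMSO libraries had 11.1, 11.4 and 10.47 CPM and the C59 libraries 1.49, 1.05 and 1.17 CPM, so the C59 level was 0.113 of the DMSO level by the fit (log2 fold change -3.15 ± 0.18, edgeR adjusted p = 0.000118). Without C59 replicate 3 the change was -3.10 (edgeR adjusted p = 0.000215). At 24 h the groups were still apart, with 14.6, 18.9 and 16.7 CPM against 6.88, 11.3 and 10.1 CPM (-0.83 ± 0.16, edgeR adjusted p = 0.0098). In C59-treated limb buds at 18 h the mean of 1.24 CPM lay below the 3.04 CPM of DMSO 6 h earlier, without overlap, and at 24 h the mean of 9.42 CPM overlapped the DMSO libraries of 18 h, with a mean of 11 CPM. *Kera* was too low for a test at 1 h and 6 h, with 5 and 29 counts in DMSO and 3 and 21 in C59 over 3 libraries each.

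Lumican, encoded next to keratocan, was lower at 6 and 18 h. *Lum* was at 64.2, 67.0 and 65.4 CPM in DMSO and 24.8, 31.1 and 21.1 CPM in C59 at 18 h. The groups did not overlap, and the log2 fold change was -1.35 ± 0.14 (SE, edgeR adjusted p = 0.00187), or -1.23 (0.000324) without C59 replicate 3. At 6 h it had been at 14.8, 12.3 and 13.9 CPM against 11, 10.4 and 7.85 CPM, a smaller difference without overlap (-0.48 ± 0.13, edgeR adjusted p = 0.0193). The 6 h result did not pass without DMSO replicate 1 (edgeR adjusted p = 0.0629), DMSO replicate 3 (0.0532) or C59 replicate 3 (0.0787). It did not pass with limma on log2(FPKM + 1) or log2(FPKM + 0.1) either. At 12 h the groups overlapped (-0.22 ± 0.14) and at 24 h the decrease did not pass (-0.30 ± 0.09, edgeR adjusted p = 0.054). Decorin, on the other side of *Lum*, did not pass at any time point. *Dcn* was at 10.8, 11.6 and 8.17 CPM in DMSO and 8.08, 9.76 and 5.69 CPM in C59 at 18 h, with a 95% interval of -0.81 to 0.03 for the log2 fold change, which was -0.39 and became -0.21 without C59 replicate 3, and at 12 h the interval was -0.11 to 0.68. *Epyc*, on the other side of *Kera*, was low, and could be tested only at 18 h (log2 fold change -0.60 ± 0.29, edgeR adjusted p = 0.238, and -0.58 without C59 replicate 3) and at 24 h, where the value was 0.74 ± 0.27 (edgeR adjusted p = 0.121) with no overlap of the groups.

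The ratio of neighbours in the same library shows how unequal these changes were. *Kera* was at 0.173, 0.170 and 0.160 of the CPM of *Lum* in DMSO at 18 h and at 0.0602, 0.0336 and 0.0553 in C59, and *Lum* was at 5.96, 5.76 and 8.01 times the CPM of *Dcn* in DMSO and 3.08, 3.19 and 3.71 times in C59. Neither ratio overlapped between the groups, so within a library *Kera* was lower in relation to *Lum*, and *Lum* in relation to *Dcn*. At 24 h the ratio of *Kera* to *Lum* in C59 had come to 0.104, 0.141 and 0.123, still below the 0.164, 0.185 and 0.185 of DMSO.

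**Figure D3:**
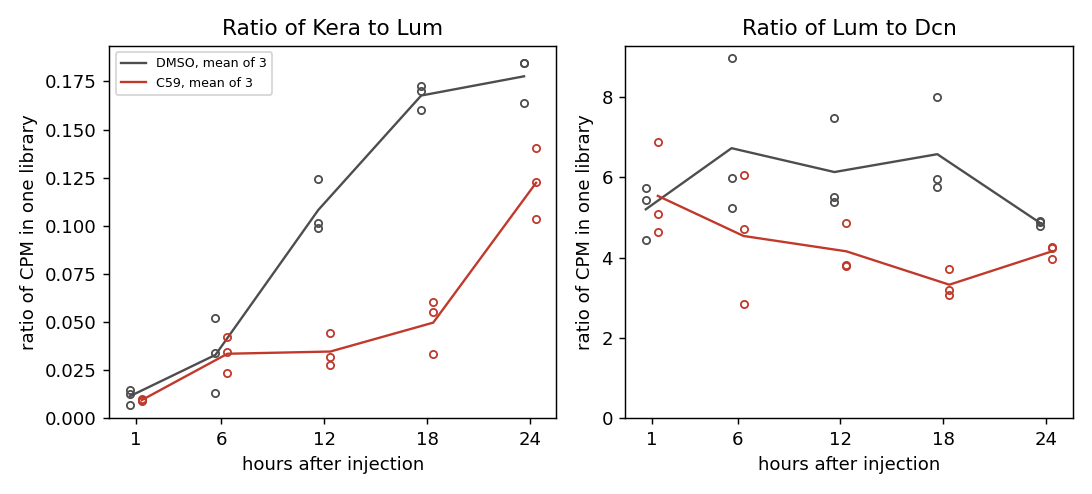
Ratio of *Kera* to *Lum* and of *Lum* to *Dcn*, neighbouring genes, within each library (ratio of CPM, vertical axis from 0) against hours after injection, with 1 point per library and lines through the means of 3 libraries. At 18 h the C59 libraries sit between 0.0336 and 0.0602 for *Kera* to *Lum*, below the DMSO libraries at 0.160 to 0.173.

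Osteoglycin, a proteoglycan of the other cluster, moved the other way at 12 h. *Ogn* was at 3.16, 4.99 and 2.01 CPM in DMSO and 7.64, 11.4 and 9.65 CPM in C59. All C59 libraries lay above all DMSO libraries (2.83-fold, log2 fold change 1.5 ± 0.27 SE, edgeR adjusted p = 0.000983). At 18 h it was at 14.0, 16.1 and 17.4 CPM in DMSO and 10.9, 14.4 and 8.17 CPM in C59, and the groups overlapped (-0.50 ± 0.20, edgeR adjusted p = 0.16, and -0.32 without C59 replicate 3, 0.165). Without C59 replicate 3 and DMSO replicate 1 of that time point, left out after their values had been seen, the 18 h decrease was 0.39 on the log2 scale with an edgeR adjusted p of 0.0499. At 24 h *Ogn* overlapped again, with 30.8, 29.7 and 30.4 CPM against 26.9, 41.2 and 39 CPM. Of its neighbours, *Ecm2* had 32 counts in DMSO and 58 in C59 at 12 h and did not pass (log2 fold change 0.63 ± 0.45, edgeR adjusted p = 0.279), and *Aspn* (8 and 28 counts) and *Omd* (3 and 8 counts) were too low for a test.

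*Scx* was higher in C59-treated forelimb buds at 6, 12 and 18 h, and the change of the effect had a 95% interval of -0.25 to 0.26 on the log2 scale from 6 to 12 h and of -0.28 to 0.37 from 12 to 18 h. It was at 68.1, 61.1 and 71.2 CPM in DMSO and 87.6, 91.7 and 90.1 CPM in C59 at 6 h (log2 fold change 0.44 ± 0.06 SE, edgeR adjusted p = 0.000158). At 12 h it was at 67.6, 72.2 and 75.1 CPM against 107.0, 106.7 and 78.8 CPM (0.45 ± 0.10, edgeR adjusted p = 0.00479). The third C59 library at 12 h lay just above the DMSO libraries, and the groups did not overlap at either time. At 18 h it was at 73.3, 66.8 and 63.6 CPM against 87.5, 90.7 and 107.8 CPM (0.49 ± 0.11, edgeR adjusted p = 0.0294), and the difference was 0.40 (edgeR adjusted p = 0.00951) without C59 replicate 3. The 18 h result did not pass without DMSO replicate 1 (0.0696), DMSO replicate 2 (0.114), DMSO replicate 3 (0.154) or C59 replicate 2 (0.0795), nor with limma on FPKM (0.0652). At 24 h *Scx* did not pass (0.23 ± 0.07, edgeR adjusted p = 0.0772).

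*Mkx*, the other tendon factor, on chromosome 18, was lower at 6 and 12 h, where *Scx* was higher. At 6 h *Mkx* was at 16.6, 15 and 16.3 CPM in DMSO and 10.2, 10.1 and 9.51 CPM in C59 (log2 fold change -0.67 ± 0.10 SE, edgeR adjusted p = 0.00026). At 12 h it was at 18.3, 17.1 and 19.8 CPM against 12.8, 11.6 and 13.6 CPM (-0.54 ± 0.10, edgeR adjusted p = 0.00131). All C59 libraries were below all DMSO libraries at both times. The groups were already apart at 1 h, with 12.5, 12.5 and 13.5 CPM against 10.46, 7.11 and 8.57 CPM (-0.54 ± 0.13, edgeR adjusted p = 0.0396). At 24 h the order had turned, with 25.4, 23.3 and 27.8 CPM against 29.9, 32.9 and 33.1 CPM (0.33 ± 0.08, edgeR adjusted p = 0.039), and the groups did not overlap. The 1 h and 24 h results did not pass with limma on log2(FPKM + 1) or log2(FPKM + 0.1). They were each kept in only 1 of the 6 fits that left out a library: without C59 replicate 1 at both times. At 1 h the adjusted p was 0.0737, 0.0966 and 0.0561 without DMSO replicate 1, 2 and 3 and 0.141 and 0.107 without C59 replicate 2 and 3, and at 24 h it was 0.145, 0.16 and 0.058 without DMSO replicate 1, 2 and 3 and 0.0929 and 0.0725 without C59 replicate 2 and 3 (edgeR).

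*Six2* passed at 18 h, where it was lower. It was at 77.6, 69.1 and 67.5 CPM in DMSO and 46.3, 52.4 and 49.6 CPM in C59, without overlap (log2 fold change -0.53 ± 0.10 SE, edgeR adjusted p = 0.016). The result did not pass without any 1 of the DMSO libraries, with adjusted p of 0.0698, 0.0615 and 0.0747 without replicate 1, 2 and 3 (edgeR), and it was unchanged at -0.53 without C59 replicate 3. At 24 h *Six2* was at 109.2, 118.8 and 117.1 CPM against 108.3, 102.8 and 107.0 CPM, and did not pass (-0.12 ± 0.06).

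*Hic1* was higher at 6, 12 and 24 h. At 6 h it was at 24.8, 23.6 and 27.9 CPM in DMSO and 32.6, 48.3 and 33.4 CPM in C59 (log2 fold change 0.60 ± 0.13 SE, edgeR adjusted p = 0.00522). At 12 h it was at 47.7, 68.6 and 38.0 CPM against 71.5, 87.4 and 70.0 CPM (0.57 ± 0.17, edgeR adjusted p = 0.0181). DMSO replicate 2 came close to the C59 libraries there, but the groups did not overlap. The 12 h result did not pass without DMSO replicate 1 (edgeR adjusted p = 0.0704), DMSO replicate 3 (0.0592) or C59 replicate 2 (0.0675), nor with DESeq2 (0.0757). At 18 h the groups overlapped (0.03 ± 0.12), and the sign turned to -0.11 without C59 replicate 3. At 24 h *Hic1* was at 135.6, 121.8 and 144.9 CPM against 183.6, 168.6 and 198.3 CPM, again without overlap (0.45 ± 0.08, edgeR adjusted p = 0.00469). The 24 h result did not pass when all 30 libraries shared the spread (0.0859).

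*Islr* had the second largest increase of the 10 genes at 12 h, after *Ogn*. It was at 47.1, 61.2 and 50.1 CPM in DMSO and 112.3, 108.4 and 94.6 CPM in C59. The lowest C59 library was well above the highest DMSO library (log2 fold change 1.00 ± 0.10 SE, edgeR adjusted p = 1.68e-05), and unrounded the change lay just under the limit for a call. At 6 h *Islr* was at 38.4, 35.5 and 34.2 CPM against 52.5, 55.2 and 42.7 CPM, also without overlap (0.49 ± 0.09, edgeR adjusted p = 0.00137). At 18 h it did not pass (0.42 ± 0.14, edgeR adjusted p = 0.108, and 0.26 without C59 replicate 3, 0.0845), with 85.2, 101.4 and 125.7 CPM in C59, all above DMSO. *Islr2*, which overlaps it on the same strand, was at 7.02, 13.2 and 7.63 CPM against 10.3, 10.7 and 10.52 CPM at 12 h, with overlapping groups (0.19 ± 0.21, edgeR adjusted p = 0.481).

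*Smoc2* was higher at 12, 18 and 24 h. At 12 h it was at 26.8, 33.2 and 31.4 CPM in DMSO and 41.2, 41.8 and 39.0 CPM in C59 (log2 fold change 0.42 ± 0.08 SE, edgeR adjusted p = 0.00166). At 18 h it was at 55.8, 57.9 and 49.4 CPM against 74.2, 90.3 and 100.3 CPM (0.70 ± 0.12, edgeR adjusted p = 0.0136), and at 24 h at 75.0, 79.3 and 77.8 CPM against 95.3, 98.4 and 91.1 CPM (0.30 ± 0.06, edgeR adjusted p = 0.013). The C59 libraries were above the DMSO libraries at all 3 times. Without C59 replicate 3 the 18 h change was 0.60 (edgeR adjusted p = 0.00623). It did not pass without DMSO replicate 1 (0.0626), DMSO replicate 3 (0.0853) or C59 replicate 2 (0.0559), and the 24 h change did not pass without DMSO replicate 1 (0.0841) or replicate 3 (0.0636). At 1 h and 6 h *Smoc2* did not pass.

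Whether an effect differed between time points was tested as an interaction on 12 libraries, and between 12 and 18 h the effect fell for 3 of the 4 proteoglycan genes. Rose and fell here refer to the signed log2 fold change. The decreases of *Kera* and *Lum* thus grew from 12 to 18 h and shrank from 18 to 24 h. From 6 to 12 h the C59 effect rose for *Smoc2* (difference of log2 fold changes 0.61 ± 0.12 SE, edgeR adjusted p = 0.00259) and *Islr* (0.51 ± 0.15, edgeR adjusted p = 0.023), 2 of 10 genes, beside 18.1% of all genes in either direction. *Islr* did not pass when either C59 6 h replicate 3 (0.0511) or the first DMSO library of 12 h (0.0568) was left out. From 12 to 18 h it fell for *Ogn* (-2.0 ± 0.36, edgeR adjusted p = 0.00409), *Lum* (-1.13 ± 0.21, edgeR adjusted p = 0.00468) and *Kera* (-1.30 ± 0.35, edgeR adjusted p = 0.0346), 3 of 10 genes, beside 8.49% of all genes. For *Kera* this step passed in 4 of the 12 fits that left out a library, and did not pass without DMSO replicate 1 or 3 or C59 replicate 2 or 3 of 12 h (edgeR adjusted p = 0.0818 to 0.129), nor without any DMSO library or C59 replicate 2 of 18 h (0.0601 to 0.0768). Without C59 18 h replicate 3 it was -1.82 for *Ogn*, -1.01 for *Lum* and -1.26 for *Kera*, and all 3 passed. From 18 to 24 h the effect rose for *Kera* (2.31 ± 0.27, edgeR adjusted p = 0.000433), *Lum* (1.04 ± 0.17, edgeR adjusted p = 0.00359), *Mkx* (0.61 ± 0.14, edgeR adjusted p = 0.0191) and *Six2* (0.41 ± 0.11, edgeR adjusted p = 0.0396), 4 of 10 genes, beside 6.96%. The *Six2* step passed in 3 of 12 such fits, those without DMSO replicate 3 or C59 replicate 2 or 3 of 18 h, with an adjusted p of 0.0512 to 0.103 in the other 9 (edgeR). It also did not pass with upper-quartile factors (0.0554), without the filter (0.0505), with a spread shared by all 30 libraries (0.0933) or with limma on FPKM (0.0643 and 0.0657). The *Mkx* step passed in 8 of 12, and not without DMSO 18 h replicate 1 or, at 24 h, DMSO replicate 1 or 2 or C59 replicate 2 (0.0508 to 0.0588), nor with limma on log2(FPKM + 1) (0.0505). Without C59 18 h replicate 3 the steps were 2.26 for *Kera*, 0.91 for *Lum*, 0.54 for *Mkx* and 0.40 for *Six2*, and all 4 passed. Consecutive steps share the libraries of a time point, so they are not independent of each other.

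Over the 10 group means of log2 CPM, a description over points that share the time course, the patterns of *Dcn* and *Ogn* were the most alike among the 10 genes (Pearson r = 0.99) and those of *Scx* and *Kera* the least (0.34). Among all 12541 genes with a mean of at least 1 CPM, the pattern of *Scx* was closest to *Dact1* (0.969), *Bcl9l* (0.966) and *Trp73* (0.965), and that of *Kera* to *Ptgfr* (0.971), *Ston1* (0.971) and *Lum* (0.969). *Six2* was closest to *Pitx3* (0.992), *Dcn* (0.984) and *Pax7* (0.983), *Ogn* to *Tnnt1*, *Nfib* and *Glipr2* (0.995 to 0.997), and *Hic1* to *Synpo2l*, *Nfix* and *Postn* (0.992 to 0.995).

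Further genes of tendon and ligament differentiation, collagens and their partners, were more often higher than lower at 6 and 12 h and more often lower at 24 h. Of 20 tested at 12 h, 8 were higher and 1 lower, where 22% of all genes were higher and 25.5% lower (median log2 fold change 0.36, beside 0.02 for all genes). *Fmod*, a proteoglycan of collagen fibrils, was at 5.27, 7.44 and 6.65 CPM in DMSO and 14.6, 14.6 and 16.9 CPM in C59 at 12 h, without overlap (log2 fold change 1.26 ± 0.14 SE, edgeR adjusted p = 4.17e-05). *Col1a1*, the main fibrillar collagen chain of tendon, was higher at 12 h (0.51 ± 0.08) and lower at 24 h (-0.66 ± 0.11), and *Col3a1* was lower at 12 h (-0.48 ± 0.08). At 6 h 8 of 18 were higher and 2 lower, beside 8.2% and 11.4% of all genes, and at 24 h 1 of 20 was higher and 4 lower, beside 2.88% and 3.56%. At 18 h 2 of 20 were higher, beside 3.46% of all genes, *Egr1* (0.77 ± 0.18) and *Col5a1* (0.41 ± 0.10). Without C59 replicate 3 of 18 h, 4 were higher and 1 lower, beside 7.01% and 9.2% of all genes in that fit, with *Egr1* at 0.71 and *Col5a1* at 0.40. *Tnmd*, the gene of mature tendon cells, could not be tested.

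Of the other small leucine-rich proteoglycans, 4 of 6 tested were higher at 12 h, where 22% of all genes were (median log2 fold change 0.86, beside 0.02 for all genes). *Fmod* is among these 4 and was also counted with the genes of tendon and ligament differentiation. *Prelp* was at 2.41, 1.55 and 2.75 CPM in DMSO and 11.7, 8.54 and 6.34 CPM in C59, without overlap (log2 fold change 1.98 ± 0.26 SE, edgeR adjusted p = 0.000151). *Podn* was higher at 12 h (0.85 ± 0.32) and lower at 18 h (-1.26 ± 0.32, edgeR adjusted p = 0.0487), at levels of 0.56 to 2.96 CPM. It was the only 1 of 7 that passed at 18 h, where 3.62% of all genes were lower. Without C59 replicate 3 it was the only 1 of 8 (-1.52, edgeR adjusted p = 0.0231), beside 9.2% of all genes lower.

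Signals that act on tendon progenitors were split at 12 h, with 8 of 21 higher and 9 lower, beside 22% and 25.5% of all genes. The lower ones were led by the FGF pathway of the apical ridge: *Fgf8*, its ligand, was at 23.6, 19.4 and 25 CPM in DMSO and 2.89, 1.56 and 3.12 CPM in C59 (log2 fold change -3.17 ± 0.20 SE, edgeR adjusted p = 1.47e-06), the FGF target *Etv4* changed by -2.18 ± 0.08 and the FGF feedback inhibitor *Spry4* by -1.64 ± 0.07. The BMP antagonist *Nog* was higher (1.62 ± 0.23, edgeR adjusted p = 0.000254), as were the receptor genes *Fgfr2* (0.68 ± 0.05) and *Tgfbr2* (0.39 ± 0.08). At 18 h 2 of 22 were higher and 5 lower, beside 3.46% and 3.62% of all genes. *Gdf5*, a ligand of joint-forming cells, was higher (0.80 ± 0.15, edgeR adjusted p = 0.0163, and 0.85 without C59 replicate 3), as was *Fgfr2* (0.47 ± 0.09, and 0.48). *Etv4* (-0.99 ± 0.10, and -1.08 without that library), *Fgf8* (-0.71 ± 0.17, and -0.69) and *Spry4* (-0.53 ± 0.11, and -0.52) were still lower. Without that library 3 were higher and 8 lower, beside 7.01% and 9.2% of all genes.

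Connective tissue factors were split as well, with 9 of 29 higher and 11 lower at 12 h, beside 22% and 25.5% of all genes. *Ebf1* (log2 fold change 1.10 ± 0.09 SE), *Tcf7l2* (0.99 ± 0.07), a marker of muscle connective tissue, and *Ebf3* (0.92 ± 0.09) led the higher ones. *Prrx2* (-1.11 ± 0.06), *Hoxa11* (-0.65 ± 0.08) and *Meox2* (-0.62 ± 0.07) led the lower ones. At 18 h *Osr2*, a factor of limb connective tissue, was higher (0.95 ± 0.10, edgeR adjusted p = 0.00197, and 0.96 without C59 replicate 3) and *Eya1*, a co-activator of homeobox factors, lower (-0.76 ± 0.10, edgeR adjusted p = 0.005, and -0.71 without that library). Without it 8 of 29 were higher and 6 lower at 18 h, beside 7.01% and 9.2% of all genes in that fit. With it 1 was higher and 5 lower, beside 3.46% and 3.62% of all genes. At 12 h 3 of 7 relatives of the 10 genes rose, among them *Sparcl1* (1.21 ± 0.09), and 2 fell, among them *Smoc1* (-0.72 ± 0.09).

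**Figure D4:**
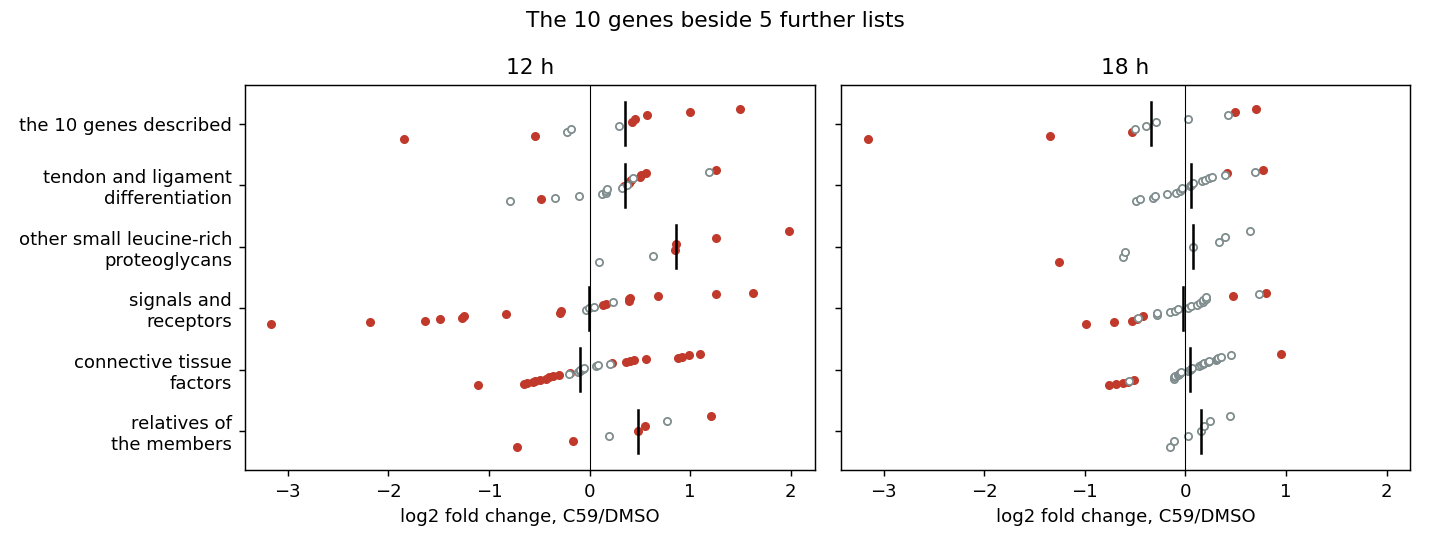
Log2 fold change of C59 over DMSO at 12 h and 18 h for the 10 genes described and for 5 further lists, with 1 point per tested gene, filled red where the adjusted p was below 0.05, and a black line at the median of the list. The 10 genes span -1.84 to 1.5 at 12 h and -3.15 to 0.70 at 18 h.

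Markers of other cells moved in the same libraries. The scale for their counts is the share of all tested genes that passed upward, followed by the share that passed downward. This pair was 1.14% and 1.61% for 1 h, 8.2% and 11.4% for 6 h, and 22% and 25.5% for 12 h. For 18 h it was 3.46% and 3.62%, or 7.01% and 9.2% without C59 replicate 3. For 24 h it was 2.88% and 3.56%. At 12 h 5 of 6 tested cartilage markers were higher in C59 (median log2 fold change 1.19), and the summed level of the 7 markers was 880.3 to 933.5 CPM in DMSO and 1650 to 2361 CPM in C59, with *Snorc* at 0 counts in both. All 6 macrophage markers were higher (19.6 to 23.7 CPM summed in DMSO, 37.1 to 39 in C59), as were 6 of 7 surface ectoderm markers (260.4 to 289.3 and 363.0 to 485.6 CPM) and 4 of 6 endothelial markers (310.5 to 333.3 and 387.6 to 429.4 CPM). Skeletal muscle markers were split, with 4 of 8 higher and 3 lower, of 4 tested nerve-associated markers 3 were higher, and of 5 limb mesenchyme markers 4 were lower and 1 higher. The limb mesenchyme markers *Prrx1*, *Prrx2* and *Lmx1b* were also counted with the connective tissue factors. At 18 h 3 of 6 cartilage markers (957.6 to 1096 CPM summed in DMSO, 1494 to 1792 in C59), 3 of 6 macrophage markers and 4 of 7 ectoderm markers were higher, and without C59 replicate 3 it was 4, 3 and 5. At 6 h 4 of 5 limb mesenchyme markers were lower (1826 to 1842 CPM summed in DMSO, 1236 to 1342 in C59), and 2 of 4 cartilage markers were higher. At 24 h 2 of 6 cartilage markers, 2 of 6 macrophage markers (32.9 to 39.4 and 44.7 to 50.8 CPM) and 3 of 7 ectoderm markers (307.3 to 314.8 and 360.0 to 398.2 CPM) were higher, and of 8 muscle markers 2 were higher and 3 lower. Of 6 red cell markers 3 were higher at 1 h, 4 lower at 6 h and 1 lower at 24 h. Their part in the changes of the 10 genes was not tested.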

How the data were processed

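PolyA RNA of mouse forelimb buds was sequenced in 30 libraries, 3 in each of 10 groups taken from the sample labels. Per the study's methods and the submitters' processing notes, adapters and poor bases were removed by the authors with cutadapt 1.16, and STAR 2.7.0e aligned the reads to mm10 using an annotation of their own. The deposited counts are raw counts per gene by STAR, without normalization, and the strand of counting is not given in the sources used here. The deposited FPKM values were computed by the authors with Cufflinks 2.2.1. The count table holds 50833 genes, of which no gene with a position is off the autosomes, and 50628 of them matched GENCODE M21.

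The 10 genes and the further lists were chosen with earlier results of these data known. Protein-coding autosomal genes were tested with edgeR 4.0.16 in R 4.3.3 (TMM factors, filterByExpr, quasi-likelihood F test, two-sided, Benjamini-Hochberg over all genes) on the 6 libraries of each time point, interactions on 12 libraries, and steps between control time points on the 15 DMSO libraries. All 10 genes stayed in the test from 12 h on, 9 at 6 h and 8 at 1 h. A filter on low counts can favour a gene that is high in one group. Scripts were tested on simulated data. The genes named from the lists are up to 3 with the largest increase and decrease among those that passed at 12 h or 18 h without overlap of the groups, and the neighbours of the proteoglycan genes and *Axin2*. *Islr2*, and the values of *Col1a1* at 24 h, were named after they had been seen. Alternatives were other scaling factors (RLE, upper quartile), DESeq2 1.42.0, limma 3.58.1 on log2(FPKM + 1) and log2(FPKM + 0.1), dropping the filter, a filter at a mean of 1 CPM, the inclusion of all biotypes, a spread shared by all 30 libraries, the replicate number as a block, and each library left out. The further lists at 18 h were refitted without C59 replicate 3 after the data had been seen. The sources used here describe no molecular identifiers, and counting intervals leave out any other error. No 2 replicates were alike within the noise of counting.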

Additional observations from a re-analysis of the deposited data

Results flagged for a closer look

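A test of the difference itself found that the C59 effect changed between consecutive time points for 7 of the 10 genes, in 9 instances (edgeR interaction, Benjamini-Hochberg adjusted over all genes). Among all genes 18.1%, 8.49% and 6.96% passed in the 3 steps in order of time, and the 2 of 10 from 6 to 12 h lie near that share. From 6 to 12 h the log2 fold change moved by 0.51 for *Islr* and 0.61 for *Smoc2*. From 12 to 18 h it moved by -1.30 for *Kera*, -1.13 for *Lum* and -2.0 for *Ogn*. From 18 to 24 h it moved by 0.61 for *Mkx*, 0.41 for *Six2*, 2.31 for *Kera* and 1.04 for *Lum*. Of the 9, 5 passed in every fit that left out 1 library.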

How the results depend on the processing

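Over 2221 refitted values of single genes, 2066 kept their direction and their side of the threshold, 96 no longer passed, 31 newly passed and 28 changed sign. All 160 values of the comparison of DMSO 24 h with DMSO 1 h kept both. Of the 22 results of C59 against DMSO that passed, 13 were kept in every refit, the added limit on the fold change not included. With a log2 fold change beyond 1 also asked for, the number of genes that passed at 1, 6, 12, 18 and 24 h went from 1, 5, 7, 5 and 4 to 0, 0, 2, 2 and 0, the interactions from 6 to 12 h and from 18 to 24 h went from 2 and 4 to 0 and 2, and the 4 control steps went from 9, 8, 8 and 9 to 4, 5, 4 and 0. Limma on either FPKM scale gave 0 genes at 1 h, and on log2(FPKM + 1) 4 for the change from 6 to 12 h and 2 for the change from 18 to 24 h. With 1 library left out the count ran from 0 to 1 at 1 h, 4 to 5 at 6 h, 6 to 8 at 12 h, 2 to 6 at 18 h and 2 to 5 at 24 h, and from 1 to 3, 3 to 5 and 2 to 5 for the 3 interactions in order of time. At 18 h 2 genes passed without DMSO replicate 1 or DMSO replicate 3, and 3 without DMSO replicate 2 or C59 replicate 2. At 24 h 2 passed without DMSO replicate 1 or replicate 3. The change from 6 to 12 h passed for 1 gene once C59 6 h replicate 3 or the first DMSO library of 12 h was left out, that from 12 to 18 h for 5 genes without DMSO 12 h replicate 2, and that from 18 to 24 h for 2 genes without DMSO 18 h replicate 1, DMSO 24 h replicate 1 or 2, or C59 24 h replicate 2. With 1 library left out the sign turned for *Six2* at 12 h (up to 0.03) and *Hic1* at 18 h (-0.11 to 0.13). So it did for *Dcn* at 6 h (-0.08 to 0.23) and 24 h (up to 0). The sign also turned for *Hic1* at 18 h (-0.12) without both C59 replicate 3 and DMSO replicate 1. For *Smoc2* at 1 h (0) it turned with upper-quartile factors. None of these passed in the first place. The other 20 of the 28 sign changes were in changes of the effect that did not pass, *Scx* (5 values from 6 to 12 h and 5 from 12 to 18 h, -0.09 to 0) and *Hic1* (10 from 6 to 12 h, 0.01 to 0.25). The cause was not tested. With a replicate block 3 genes passed at 18 h in place of 5, without *Scx* (edgeR adjusted p = 0.0869) and *Six2* (0.0582), and neither the change from 18 to 24 h for *Six2* (0.0833) nor the control step from 1 to 6 h for *Ogn* (0.0563) did. Same-numbered libraries correlated by -0.29 to 0.17 in their deviations and exceeded 0.1 in 3 of 15 pairs. At no time point did all 3 pairs exceed it, which does not exclude a pairing by number. The depth limits *Kera* and *Ogn* at 1 h and *Kera* at 6 h, which were too low for a test.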
